A study of Mus musculus with 18 samples.

Results

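The genes described here are 10 adhesion and homing genes of blood progenitors in their niche: Itga4, Itgb1, Itga5, Cd44, Itgal, Itgb2, Selplg, Cxcr4, Amigo2 and Pcdh7. They were taken by symbol from a count table of 21967 genes, where each is a single row, and all 10 passed the filter on low counts in all 11 comparisons. Of these, 8 have known roles in adhesion or homing of blood cells. The list was chosen by gene function with measured levels of these same libraries already known, and which levels led to it is not recorded, so the p-values below are not independent evidence. Amigo2 and Pcdh7 have no such known role and may have been picked for their values in these mice, so their levels and fold changes are a description with no test.

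RNA was measured in CFU-E, committed erythroid progenitors of mouse bone marrow, and in PreCFU-E, the stage before them, from mice whose Scf gene was altered. Scf, also called Kitl, encodes stem cell factor, the ligand of the receptor KIT. Scf KO/FL;Lepr-Cre mice carried a null copy, a floxed copy and Cre driven from the leptin receptor locus, which is active in marrow stromal cells, and are called Lepr-Cre mice here. Scf KO/FL mice had the same null and floxed copies without Cre, so the null copy was in all cells of both these genotypes. Scf FL/FL mice had floxed copies alone and no Cre. There were 3 mice per genotype, lettered A, B and C, of which B was female and A and C were male, and age is not stated in the sources used here. Both cell types came from each of the 9 mice, giving 18 libraries, sorted from c-Kit-enriched marrow on lineage antibodies with CD105, CD150, CD41, CD16/32 and Sca1.

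Progenitors are held in bone marrow by receptors on their own surface and ligands on stroma, vessels and macrophages. Integrins are pairs of an alpha and a beta chain: alpha4beta1 (Itga4 and Itgb1) binds VCAM1 and fibronectin, alpha5beta1 (Itga5 and Itgb1) binds fibronectin, and LFA-1 (Itgal and Itgb2) binds ICAM proteins. CD44 binds hyaluronan, PSGL-1 (Selplg) carries sugars that selectins bind, and CXCR4 is the receptor for the stromal chemokine CXCL12. In erythroid cells alpha4beta1 is known for contact with the macrophages of erythroblastic islands, and alpha5beta1 for contact with fibronectin at early stages. Amigo2 encodes a cell surface protein with leucine-rich repeats and Pcdh7 a protocadherin, both known mainly from the nervous system.

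Library totals were 3541066 to 9389122 counts, and 10782 to 13536 genes had a count. The library with the fewest genes was CFU-E of Lepr-Cre B, which stands apart in this respect. Fold changes of Amigo2 and Pcdh7 that rest on it are therefore also given without it. That of Itgal between cell types is given with each library left out in turn. All 10 erythroid identity genes had counts in all 6 groups and summed to 5145 to 5857 CPM (counts scaled to a common library size). A sum can hide changes of single genes, and those that differed between groups are counted below. Markers of neutrophils and monocytes summed to 0.143 to 5.05 CPM, with Elane, Ctsg, Ly6c2, Ly6g, Itgam and Cebpe at 0 in all libraries. Mast cell, basophil and eosinophil markers summed to 0.443 to 6.17 CPM, island macrophage markers to 2.29 to 9.21 CPM, megakaryocyte markers to 32.5 to 55.5 CPM and endothelial markers to 42.5 to 78.7 CPM. Stromal markers summed to 0.471 to 6.76 CPM in CFU-E and 7.13 to 26.7 CPM in PreCFU-E. Kitl itself had 2 counts in all, 1 in PreCFU-E and 1 in CFU-E of KO/FL mice, so these libraries do not check the deletion in stroma.

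Per kilobase of annotated exon, a scale that sets levels of different genes side by side, Itgb1 was the highest of the 10 genes in all 6 groups. The length is that of all annotated exons together, 13978 bases for Itga4, 4081 for Itgb1 and 6776 for Cd44. Which transcripts these cells express was not determined. In mean CPM without a length Itga4 stood above Itgb1 and Cd44 in all 6 groups, so the order of these genes rests on the length used. It averaged 128.5 ± 13.9, 127 ± 7.49 and 121 ± 1.99 CPM per kb in CFU-E of Lepr-Cre, KO/FL and FL/FL mice, and 113 ± 9.14, 95.4 ± 5.49 and 86.7 ± 5.16 CPM per kb in PreCFU-E (SD, n = 3 per group here and below). Itga4 and Cd44 came next. Itga4 averaged 38.9 ± 0.863, 47.8 ± 6.06 and 52.3 ± 3.24 CPM per kb in CFU-E of Lepr-Cre, KO/FL and FL/FL mice, and 44.4 ± 5.19, 58.0 ± 8.57 and 61.1 ± 6.82 CPM per kb in PreCFU-E. Cd44 averaged 47.5 ± 1.26, 47.1 ± 3.14 and 52.2 ± 3.16 CPM per kb in CFU-E of the same genotypes, and 48.7 ± 1.83, 43.8 ± 2.24 and 44.4 ± 3.23 CPM per kb in PreCFU-E. By mean on this scale, Cd44 therefore stood above Itga4 in both Lepr-Cre groups and below it in the other groups, although in CFU-E outside Lepr-Cre mice the means of this pair were closer than their SD. In PreCFU-E of Lepr-Cre mice the order did not hold in each mouse, with Itga4 at 50.3 and Cd44 at 49.4 CPM per kb in B.

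Itga5 followed in all 6 groups, at means of 16.6 to 30.95 CPM per kb. Cxcr4, at 12.3 to 16.4 CPM per kb, came next in 5 groups, and in PreCFU-E of KO/FL mice stood just below Itgb2. The other means were those of Amigo2 (0.669 to 13.04), Itgb2 (3.93 to 12.6), Selplg (4.17 to 9.78), Pcdh7 (0.188 to 3.29) and Itgal (0.0449 to 1.79), all in CPM per kb. Itgal was the lowest in 5 groups, and Pcdh7 was the lowest in PreCFU-E of Lepr-Cre mice.

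**Figure D1:**
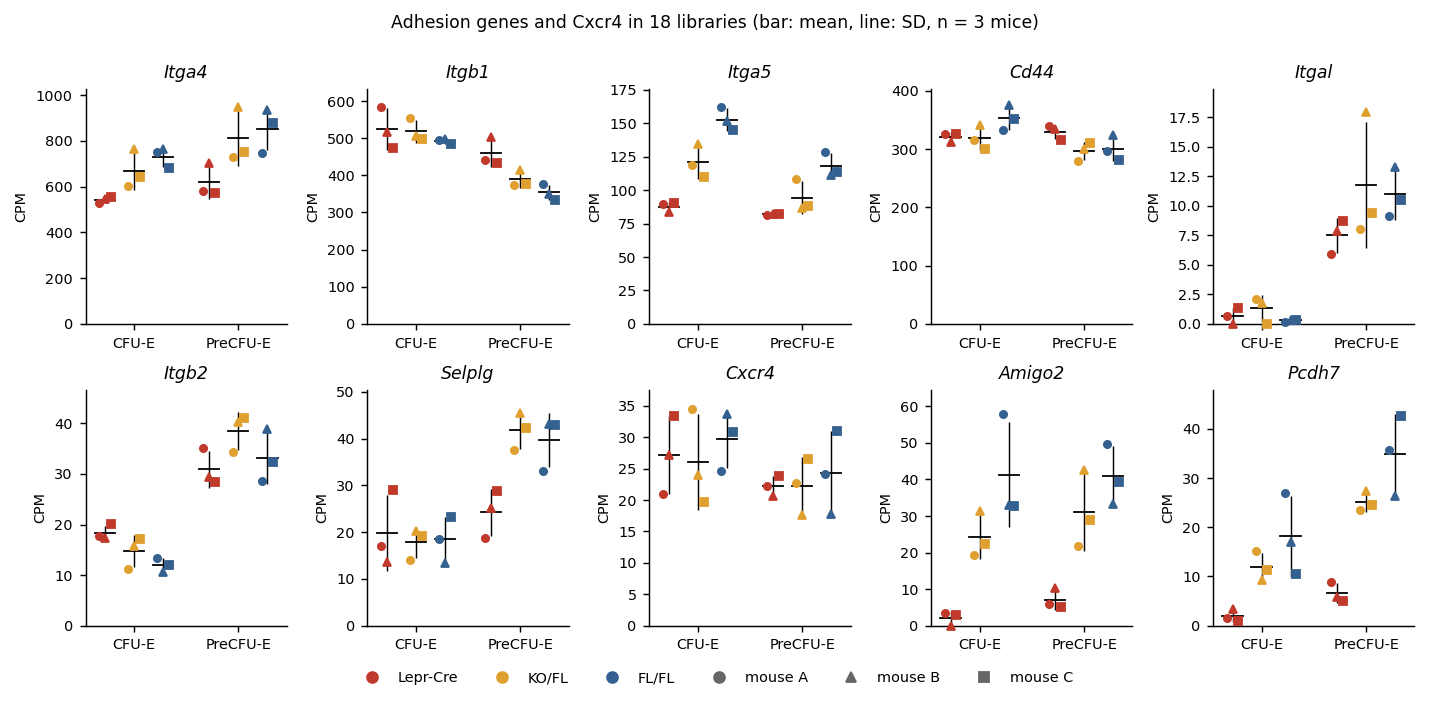
Level of each of the 10 genes, in CPM ( y axes from 0 and on a scale of their own per gene), in the 18 libraries, by cell type and genotype. Points are single libraries with the shape giving the mouse letter, horizontal bars are means and vertical lines SD of 3 mice; Amigo2 and Pcdh7 are lowest in Lepr-Cre mice in both cell types, while Itgal, Itgb2 and Selplg are lower in CFU-E than in PreCFU-E of FL/FL and KO/FL mice.

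The first question was how stromal loss of Scf, on top of the null copy, bears on these genes in each cell type. Only the comparison with KO/FL mice holds the null copy alike. FL/FL mice differ from Lepr-Cre mice by the null copy as well as by Cre, and these cannot be told apart in that comparison. In the following, a log2 fold change is the first-named group over the second, a gene is called at an adjusted p under 0.05 (Benjamini-Hochberg over all tested genes, edgeR quasi-likelihood test), and the comparisons of Lepr-Cre mice with FL/FL and with KO/FL mice share the Lepr-Cre libraries. In bulk samples, fewer cells of a type and less RNA per cell cannot be told apart. Of the 8 genes listed for function, PreCFU-E of Lepr-Cre mice had 1 higher (Itgb1) and 3 lower (Itga4, Itga5 and Selplg) than PreCFU-E of FL/FL mice, where 2.89% of 10309 tested genes were called higher and 3.24% lower. CFU-E of Lepr-Cre mice had 0 higher and 2 lower (Itga4 and Itga5) than CFU-E of FL/FL mice, where 2.08% of 10192 genes were called higher and 2.75% lower. Against KO/FL mice, 1 gene was lower in PreCFU-E (Selplg), with 1.02% of all genes called higher and 1.16% lower. In CFU-E 0 of 8 were called against KO/FL mice by edgeR, with 1.01% of all genes called. DESeq2 called 1 (Itga5), with 229 of 9793 genes called. An unadjusted p under 0.05 was found for 2 of the 8 (Itga4 and Itga5). The share of all genes under that unadjusted threshold was not counted, so no excess is read from such counts here or below.

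Itga4 (ENSMUSG00000027009.18, chromosome 2, 79255426 to 79333123, plus strand, GRCm38), the alpha4 chain, had 582, 704 and 574 CPM in PreCFU-E of Lepr-Cre mice A, B and C, against 731, 948 and 751 CPM in KO/FL and 748, 933 and 879.7 CPM in FL/FL mice. The Lepr-Cre libraries lay below both other genotypes without overlap. The fall against FL/FL mice was 0.46 on the log2 scale (log2 fold change -0.46, SE 0.12, adjusted p = 0.0283), and the call was lost without B (0.125) or C (0.0767) of the FL/FL mice, or A (0.116) or C (0.132) of the Lepr-Cre mice. Against KO/FL mice the log2 fold change was -0.39 (SE 0.12, adjusted p = 0.122), and it was called in a fit with a replicate block (-0.38, adjusted p = 6.41e-05). That fit called 840 of 10309 genes.

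In CFU-E, Itga4 had 530.2, 546 and 554 CPM in Lepr-Cre mice, against 600.4, 763 and 641 CPM in KO/FL and 749, 765 and 679.8 CPM in FL/FL mice. All Lepr-Cre libraries were again the lowest. Itga4 fell against FL/FL mice (log2 fold change -0.41, SE 0.11, adjusted p = 0.0259), a call lost without A (0.0706) or B (0.114) of the FL/FL mice, or A (0.0799) or B (0.0692) of the Lepr-Cre mice. The log2 fold change against KO/FL mice was -0.29 (SE 0.11, adjusted p = 0.245).

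Itga5 (ENSMUSG00000000555.8, chromosome 15, 103344286 to 103366763, minus strand), the alpha5 chain, had 89.6, 83.5 and 90.1 CPM in CFU-E of Lepr-Cre mice, against 119, 134 and 109.8 CPM in KO/FL and 162, 152 and 145 CPM in FL/FL mice. The 3 genotypes did not overlap in CFU-E, with Lepr-Cre lowest and FL/FL highest. Itga5 fell against FL/FL mice by 0.78 on the log2 scale (SE 0.12, adjusted p = 0.000398), and this call remained without each library in turn (0.000631 to 0.00356). Against KO/FL mice the log2 fold change was -0.45 (SE 0.12, adjusted p = 0.0697), which was called with the replicate block (0.0299), with DESeq2 (0.0201), without a filter on low counts (0.0461) and in the fit of all 18 libraries (0.0439). In that order these fits called 280 of 10192, 229 of 9793, 244 of 15661 and 131 of 10732 genes.

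In PreCFU-E, Itga5 had 81.3, 82.4 and 82.4 CPM in Lepr-Cre mice, against 109, 86.5 and 87.9 CPM in KO/FL and 129, 111 and 113 CPM in FL/FL mice, again without overlap between Lepr-Cre and the others. Itga5 fell against FL/FL mice (log2 fold change -0.52, SE 0.13, adjusted p = 0.0166), a call lost without A of the FL/FL mice (0.095) or any of the Lepr-Cre mice (A 0.0527, B 0.0523, C 0.0556). Set against KO/FL mice it was -0.20 (SE 0.13, adjusted p = 0.572).

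Itgb1 (ENSMUSG00000025809.15, chromosome 8, 128685654 to 128733200, plus strand), the beta1 chain that pairs with both alpha chains, moved the other way in PreCFU-E. It had 442, 502 and 434 CPM in Lepr-Cre mice, against 375, 415 and 378 CPM in KO/FL and 376, 351 and 334 CPM in FL/FL mice, so the Lepr-Cre libraries were the 3 highest. Itgb1 rose against FL/FL mice (log2 fold change 0.38, SE 0.11, adjusted p = 0.0323). The call was lost without B (0.101) or C (0.147) of the FL/FL mice, or any of the Lepr-Cre mice (A 0.0549, B 0.163, C 0.0501). Against KO/FL mice it was 0.24 (SE 0.11, adjusted p = 0.304), and called with the replicate block (adjusted p = 0.0325), where 840 of 10309 genes were. In CFU-E the Itgb1 groups overlapped, with 585, 516.5 and 472 CPM in Lepr-Cre mice against 495, 499 and 483 CPM in FL/FL mice (log2 fold change 0.11, SE 0.10, adjusted p = 0.639).

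Because alpha4 and alpha5 chains need beta1 as partner, the transcripts were also set as ratios per kb of exon within each library, as a description. The ratio of Itga4 to Itgb1 was 0.385 to 0.409 in PreCFU-E of Lepr-Cre mice, 0.569 to 0.667 in KO/FL and 0.581 to 0.776 in FL/FL mice. In CFU-E it was 0.265 to 0.342 in Lepr-Cre, 0.317 to 0.441 in KO/FL and 0.411 to 0.448 in FL/FL mice. The Lepr-Cre libraries did not overlap with FL/FL libraries in either cell type, and in CFU-E they overlapped with KO/FL libraries. The ratio of Itga5 to Itgb1 was 0.127 to 0.158 in Lepr-Cre, 0.177 to 0.220 in KO/FL and 0.248 to 0.271 in FL/FL CFU-E. In PreCFU-E the same ratio was 0.136 to 0.157 in Lepr-Cre, 0.172 to 0.240 in KO/FL and 0.262 to 0.283 in FL/FL mice, so the 3 genotypes were in the same order without overlap in both cell types.

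**Figure D2:**
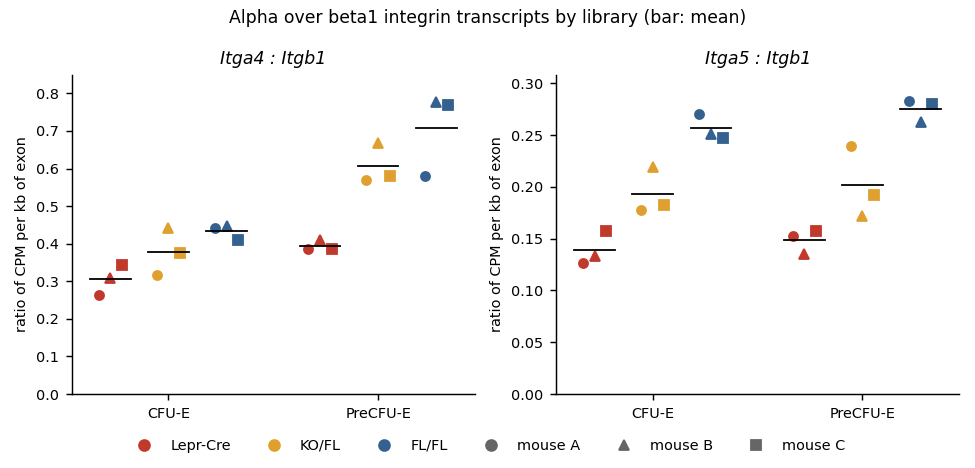
Ratio of alpha4 (Itga4, left) and alpha5 (Itga5, right) to beta1 (Itgb1) transcripts, each in CPM per kb of exon (y axes from 0), in the 18 libraries by cell type and genotype. Points are single libraries, bars are means of 3 mice; Lepr-Cre libraries are the lowest for Itga5 in both cell types, at 0.127 to 0.158, and FL/FL libraries the highest, at 0.248 to 0.283.

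Amigo2 (ENSMUSG00000048218.6, chromosome 15, 97244125 to 97247287, minus strand) had 3.42, 0 and 2.92 CPM in CFU-E of Lepr-Cre mice, against 19.4, 31.4 and 22.4 CPM in KO/FL and 57.9, 33.1 and 32.8 CPM in FL/FL mice. These rest on 29, 0 and 20 counts in Lepr-Cre mice, and the 0 is in CFU-E of Lepr-Cre B, where 3 counts would be 0.451 CPM. In PreCFU-E Amigo2 had 5.89, 10.2 and 5.13 CPM in Lepr-Cre, 21.8, 42.7 and 28.8 CPM in KO/FL and 49.8, 33.4 and 39.3 CPM in FL/FL mice. Lepr-Cre libraries were the lowest without overlap in both cell types.

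The log2 fold change of Amigo2 in CFU-E was -4.21 (SE 0.65) against FL/FL and -3.47 (SE 0.64) against KO/FL mice, and -3.67 and -2.93 without Lepr-Cre B. In PreCFU-E it was -2.52 (SE 0.29) against FL/FL and -2.14 (SE 0.29) against KO/FL mice.

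Pcdh7 (ENSMUSG00000029108.14, chromosome 5, 57717967 to 58133230, plus strand) had 1.65, 3.31 and 1.02 CPM in CFU-E of Lepr-Cre mice, from 14, 22 and 7 counts, against 15.1, 9.38 and 11.3 CPM in KO/FL and 26.96, 17 and 10.6 CPM in FL/FL mice. In PreCFU-E it had 8.90, 5.83 and 5.01 CPM in Lepr-Cre, 23.5, 27.4 and 24.5 CPM in KO/FL and 35.7, 26.5 and 42.7 CPM in FL/FL mice. As with Amigo2, the Lepr-Cre libraries lay below the others in both cell types.

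The log2 fold change of Pcdh7 in CFU-E was -3.16 (SE 0.45) against FL/FL and -2.58 (SE 0.45) against KO/FL mice, and -3.71 and -3.12 without Lepr-Cre B. In PreCFU-E it was -2.41 (SE 0.27) against FL/FL and -1.94 (SE 0.27) against KO/FL mice. Groups without overlap, in either direction, made up 25.2% of tested genes in PreCFU-E and 22.2% in CFU-E for Lepr-Cre against FL/FL mice. Against KO/FL mice they made up 18.6% in PreCFU-E and 17.2% in CFU-E.

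The 4 genes with lower levels in Lepr-Cre mice than in FL/FL mice in both cell types are Amigo2, Pcdh7, Itga5 and Itga4, and the sequence before the start of each is shown so that their promoters can be compared. The sequences are RefSeq's (GRCm38.p6), 5′ to 3′ on the gene's strand and ending at the base before the start, and capitals mark CACCC or its reverse complement, the core recognised by KLF factors of red cells. They lie at chr15:97247288-97247537 (minus strand), chr5:57717831-57717966 (plus strand), chr15:103366792-103367041 (minus strand) and chr2:79255176-79255425 (plus strand), in the order shown, and Pcdh7 ends where its transcribed part begins in GENCODE.
Amigo2: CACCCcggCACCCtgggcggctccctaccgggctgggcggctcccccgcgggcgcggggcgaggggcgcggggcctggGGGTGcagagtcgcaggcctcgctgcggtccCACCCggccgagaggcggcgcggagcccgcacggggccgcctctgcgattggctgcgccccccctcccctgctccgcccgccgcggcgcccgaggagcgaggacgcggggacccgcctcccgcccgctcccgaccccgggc
Pcdh7: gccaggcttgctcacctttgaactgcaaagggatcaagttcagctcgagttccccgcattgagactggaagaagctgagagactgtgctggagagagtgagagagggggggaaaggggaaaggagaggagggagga
Itga5: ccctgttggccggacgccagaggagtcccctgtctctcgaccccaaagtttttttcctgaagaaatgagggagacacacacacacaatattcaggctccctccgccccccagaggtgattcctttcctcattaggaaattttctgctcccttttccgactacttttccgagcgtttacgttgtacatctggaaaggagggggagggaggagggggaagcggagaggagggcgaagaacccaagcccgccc
Itga4: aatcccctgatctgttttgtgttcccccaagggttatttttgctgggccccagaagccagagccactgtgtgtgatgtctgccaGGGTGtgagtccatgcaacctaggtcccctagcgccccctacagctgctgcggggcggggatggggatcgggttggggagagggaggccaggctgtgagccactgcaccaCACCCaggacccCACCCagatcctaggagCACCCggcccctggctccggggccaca

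The following 3 motifs were searched on both strands of the 250 bases before RefSeq's start, of which 136 are printed for Pcdh7, and none is part of another. The GATA motif was GATAA, held by 22.6% of 32851 promoters of this length. The KLF motif was CACCC, held by 52.0% of them, and the ETS motif was CCGGAA, held by 12% of them. Amigo2 and Itga4 each held 4 KLF matches, while Itga5 and Pcdh7 held none of the 3 motifs. Among the other genes with a promoter in the table, Itgb1 held 2 KLF matches, Cd44 held 1 GATA match, and Cxcr4 held 1 of each. No motif of these was in all 4 promoters shown. Promoters matched for 7 of the 10 genes, and those of Itgal, Itgb2 and Selplg were not used here.

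Selplg (ENSMUSG00000048163.13, chromosome 5, 113818536 to 113832644, minus strand), which encodes the selectin ligand PSGL-1, had 18.8, 25.2 and 28.8 CPM in PreCFU-E of Lepr-Cre mice, against 37.6, 45.6 and 42.2 CPM in KO/FL and 33.1, 43.2 and 42.9 CPM in FL/FL mice. The Lepr-Cre libraries were the 3 lowest. Selplg fell against FL/FL mice (log2 fold change -0.70, SE 0.20, adjusted p = 0.0420) and against KO/FL mice (-0.79, SE 0.21, adjusted p = 0.0426).

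Both Selplg calls were lost in the fit of all 18 libraries (adjusted p = 0.0998 against FL/FL and 0.118 against KO/FL mice). The first was lost without B (0.128) or C (0.127) of the FL/FL mice, or A (0.157) or B (0.0906) of the Lepr-Cre mice. The second was lost without any of the KO/FL mice (A 0.0515, B 0.18, C 0.102), or A (0.184) or B (0.115) of the Lepr-Cre mice. In CFU-E the groups overlapped, at 17.1, 13.5 and 29.1 CPM in Lepr-Cre against 18.5, 13.5 and 23.3 CPM in FL/FL mice (log2 fold change of 0.12, SE 0.30, adjusted p = 0.881).

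None of the calls of Itga4, Itga5, Itgb1 and Selplg in PreCFU-E against FL/FL mice was made by limma on log2(RPKM + 1) or log2(RPKM + 0.1), where adjusted p was 0.0733 to 0.111, or with the male mice alone (0.064 to 0.306). The call of Itga4 in CFU-E against FL/FL mice was lost in the same way (adjusted p = 0.0759 to 0.076 by limma, 0.272 in males), and so was that of Selplg in PreCFU-E against KO/FL mice (0.123 to 0.139 by limma, 0.419 in males). In PreCFU-E against FL/FL mice, log2(RPKM + 1) gave log2 fold changes of -0.19 for Itga5 and -0.15 for Selplg. On log2(RPKM + 0.1) they were -0.47 and -0.55. The RPKM of Itga5 and Selplg rest on lengths of 195291 and 123588 bases, against 4933 and 4272 bases of exon, so the offsets weigh more on them. Markers of stem and multipotent progenitors summed to 40.8 to 65.2 CPM in PreCFU-E of Lepr-Cre, 72.4 to 101 CPM in KO/FL and 85.3 to 100.2 CPM in FL/FL mice, with Cd34, Procr, Ly6a and Mycn of the 10 at 0 in Lepr-Cre and Procr and Ly6a at 0 in FL/FL mice. Of 4 tested there, Sox4 alone was called lower against FL/FL mice and none against KO/FL mice. Their median log2 fold changes were -0.71 and -0.83. In CFU-E the same markers summed to 28.8 to 31.8 CPM in Lepr-Cre, 23.5 to 25.4 CPM in KO/FL and 25.9 to 31.1 CPM in FL/FL mice. The sum of endothelial markers was lower in Lepr-Cre than in FL/FL mice without overlap in both cell types: they summed to 43.9 to 54.7 CPM in PreCFU-E of Lepr-Cre, 56.1 to 78.7 CPM in KO/FL and 63.5 to 74.5 CPM in FL/FL mice, and to 42.5 to 57.1 CPM in CFU-E of Lepr-Cre, 43.2 to 59.7 CPM in KO/FL and 61.8 to 78.0 CPM in FL/FL mice. Of the 7, 4 were tested in PreCFU-E and 3 in CFU-E, and Plvap alone was called lower against FL/FL mice in each. The median log2 fold changes of those tested were -0.36 and 0.05. In each group 5 or 6 of the 7 had counts, and Cdh5 was at 0 in all groups but CFU-E of KO/FL mice. Stromal markers summed to 3.78 to 6.76 CPM in CFU-E of Lepr-Cre, with Pdgfra, Adipoq and Kitl of the 8 at 0, against 1.43 to 2.15 CPM in KO/FL and 0.471 to 1.80 CPM in FL/FL mice. Of the 10 erythroid identity genes, 3 were called higher and 1 lower in PreCFU-E of Lepr-Cre than of FL/FL mice (Kit, Rhag, Tfrc and Tal1). Against KO/FL mice 1 was higher and 1 lower there (Kit and Rhag). In CFU-E Kit alone was called, lower in Lepr-Cre than in FL/FL and in KO/FL mice. The part of these marker sets in the values of Itga4, Itga5, Itgb1, Selplg, Amigo2 and Pcdh7 was not tested.

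Cd44 (ENSMUSG00000005087.17, chromosome 2, 102811141 to 102901665, minus strand), the hyaluronan receptor, was not called between genotypes. It had 339, 334.5 and 316 CPM in PreCFU-E of Lepr-Cre mice, 280.0, 299.8 and 309.7 CPM in KO/FL and 297, 324 and 281 CPM in FL/FL mice. In CFU-E it had 327, 312 and 326 CPM in Lepr-Cre, 316, 342 and 299.5 CPM in KO/FL and 333.5, 376 and 352 CPM in FL/FL mice. Its log2 fold changes against FL/FL mice were 0.14 (SE 0.10, adjusted p = 0.502) in PreCFU-E and -0.12 (SE 0.10, adjusted p = 0.554) in CFU-E, where the Lepr-Cre libraries lay just below the FL/FL libraries.

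Cxcr4 (ENSMUSG00000045382.6, chromosome 1, 128588199 to 128592293, minus strand) overlapped between genotypes in both cell types. It had 21.02, 27.2 and 33.45 CPM in CFU-E of Lepr-Cre mice, 34.5, 23.95 and 19.6 CPM in KO/FL and 24.6, 33.7 and 30.8 CPM in FL/FL mice. In PreCFU-E it had 22.2, 20.6 and 23.9 CPM in Lepr-Cre, 22.7, 17.6 and 26.6 CPM in KO/FL and 24.1, 17.7 and 31.1 CPM in FL/FL mice. The log2 fold changes against FL/FL mice were -0.12 (SE 0.24, adjusted p = 0.857) in CFU-E and -0.13 (SE 0.25, adjusted p = 0.843) in PreCFU-E.

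Itgb2 (ENSMUSG00000000290.13, chromosome 10, 77530252 to 77565708, plus strand), the beta2 chain, had 17.7, 17.3 and 20.01 CPM in CFU-E of Lepr-Cre mice, against 11.2, 15.7 and 17.2 CPM in KO/FL and 13.3, 10.7 and 12 CPM in FL/FL mice. The Lepr-Cre libraries were the 3 highest, but Itgb2 was not called (log2 fold change 0.63 against FL/FL mice, SE 0.27, adjusted p = 0.199). B cell markers summed to 2.04 to 14.9 CPM in CFU-E of Lepr-Cre mice and to 0.353 to 2.52 CPM in FL/FL mice, with all 8 read in Lepr-Cre and 2 in FL/FL mice, and their part in this difference was not tested. In PreCFU-E Itgb2 had 35.05, 29.4 and 28.4 CPM in Lepr-Cre against 28.5, 38.9 and 32.3 CPM in FL/FL mice, which overlapped (log2 fold change -0.10, SE 0.20, adjusted p = 0.849).

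Itgal (ENSMUSG00000030830.18, chromosome 7, 127296260 to 127335138, plus strand), the alpha chain of LFA-1, had 5.89, 7.84 and 8.73 CPM in PreCFU-E of Lepr-Cre mice, against 8.01, 17.9 and 9.35 CPM in KO/FL and 9.10, 13.3 and 10.5 CPM in FL/FL mice (log2 fold change -0.54 against FL/FL mice, SE 0.36, adjusted p = 0.451). In CFU-E it was at the edge of detection, with 6, 0 and 9 counts in Lepr-Cre, 19, 16 and 0 counts in KO/FL and 1, 3 and 3 counts in FL/FL mice. A difference between genotypes in CFU-E was not detectable at this depth.

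**Figure D3:**
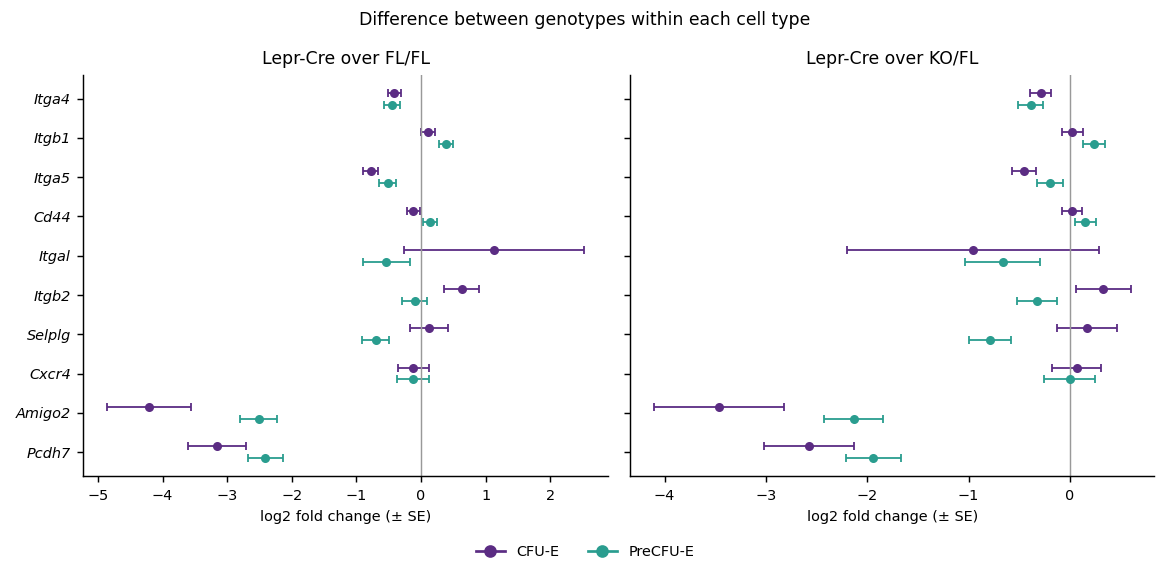
Log2 fold change of each of the 10 genes (rows) in Lepr-Cre mice over FL/FL mice (left) and over KO/FL mice (right), in CFU-E and PreCFU-E, with each panel on its own x axis. Points are edgeR estimates from 3 mice per group and bars are SE; Amigo2 and Pcdh7 lie between -4.21 and -1.94, and the wide bar of Itgal in CFU-E goes with its 0 to 19 counts per library.

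A null Scf copy alone, KO/FL against FL/FL mice, gave 0 of 8 calls in either cell type by edgeR and by DESeq2, and edgeR called 0% of all genes in both, while DESeq2 called 5 genes in PreCFU-E and 1 in CFU-E. At an unadjusted p under 0.05, where the share of all genes was not counted, there was 1 of the 8 in each cell type, Itga5. It had a log2 fold change of -0.33 (SE 0.12) in CFU-E and -0.32 (SE 0.13) in PreCFU-E, with KO/FL libraries below FL/FL libraries without overlap in both, as for 8.14% and 9.03% of all tested genes in either direction. Amigo2 was at -0.74 (SE 0.52) in CFU-E and -0.38 (SE 0.27) in PreCFU-E, and Pcdh7 at -0.59 (SE 0.39) and -0.47 (SE 0.25). KO/FL libraries lay below FL/FL libraries in CFU-E for Amigo2 and overlapped with them in the other 3 cases.

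The second question was how the same genes differ between CFU-E and the earlier PreCFU-E. In FL/FL mice, 2 of the 8 genes were higher in CFU-E (Itgb1 and Itga5, with 8.99% of 10732 genes called higher) and 3 were lower (Itgal, Itgb2 and Selplg, with 9.30% called lower). KO/FL mice gave the same 2 higher and 3 lower genes, with 6.89% and 7.18% of all genes called. In Lepr-Cre mice 0 were higher and 2 were lower (Itgal and Itgb2), with 3.00% and 4.25% of all genes called. These fits did not pair the libraries of a mouse. With the mouse as a replicate block, 2706, 2152 and 1322 of 10732 genes were called in FL/FL, KO/FL and Lepr-Cre mice.

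Both LFA-1 genes were lower in CFU-E in all 3 genotypes. Itgal had 6, 0 and 9 counts in CFU-E against 43, 70 and 68 counts in PreCFU-E of Lepr-Cre mice, 19, 16 and 0 against 29, 130 and 63 counts in KO/FL mice, and 1, 3 and 3 against 88, 90 and 76 counts in FL/FL mice. It fell in all 3 genotypes, with log2 fold changes of -3.43 (SE 0.75, adjusted p = 0.00351) in Lepr-Cre, -3.11 (SE 0.69, adjusted p = 0.00195) in KO/FL and -5.09 (SE 0.83, adjusted p = 3.74e-05) in FL/FL mice. With each Lepr-Cre library left out in turn, the Lepr-Cre value was -4.24 to -2.89 (adjusted p = 0.00402 to 0.0155, edgeR). Itgb2 averaged 18.3 ± 1.47 in CFU-E against 30.9 ± 3.61 CPM in PreCFU-E of Lepr-Cre mice, 14.7 ± 3.15 against 38.6 ± 3.75 CPM in KO/FL mice and 11.99 ± 1.31 against 33.2 ± 5.24 CPM in FL/FL mice.

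Itgb2 fell in each genotype without overlap, with log2 fold changes of -0.75 (SE 0.21, adjusted p = 0.0274) in Lepr-Cre, -1.40 (SE 0.22, adjusted p = 2.23e-05) in KO/FL and -1.47 (SE 0.22, adjusted p = 9.62e-06) in FL/FL mice. The share of all genes without overlap between cell types is not given here, so no excess is read from it. In Lepr-Cre mice that call was lost without PreCFU-E A (0.122), PreCFU-E B (0.0538), CFU-E A (0.0685) or CFU-E B (0.0925), and in a fit of the 6 Lepr-Cre libraries (0.0661). T and NK cell markers, cells that carry LFA-1, summed to 0 to 2.24 CPM in CFU-E and 0.829 to 6.35 CPM in PreCFU-E, with Cd3e and Cd8a at 0 in all groups. The sums of stromal markers and of stem and multipotent progenitor markers were also lower in CFU-E than in PreCFU-E in each genotype, with the ranges given above. Of 8 stromal markers 2 were tested, and 1, 2 and 2 were lower in CFU-E of Lepr-Cre, KO/FL and FL/FL mice. In FL/FL mice 2 of the 8 had counts in PreCFU-E and 7 in CFU-E, so that sum rests on few genes. Of 10 stem and multipotent progenitor markers 5 were tested, and 2, 4 and 3 were lower. Of the 10 erythroid identity genes, 4 were higher and 2 lower in CFU-E than in PreCFU-E of Lepr-Cre mice. The same counts were 5 and 1 in KO/FL and 6 and 1 in FL/FL mice. The part of these marker sets in the lower Itgal, Itgb2 and Selplg was not tested.

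Selplg averaged 19.9 ± 8.14 in CFU-E against 24.2 ± 5.07 CPM in PreCFU-E of Lepr-Cre mice, 17.8 ± 3.30 against 41.8 ± 4.01 CPM in KO/FL mice and 18.4 ± 4.91 against 39.7 ± 5.76 CPM in FL/FL mice. It fell in KO/FL mice (log2 fold change -1.23, SE 0.26, adjusted p = 0.000899) and in FL/FL mice (-1.11, SE 0.26, adjusted p = 0.00213). In Lepr-Cre mice the groups overlapped (-0.29, SE 0.26, adjusted p = 0.591).

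Itgb1 averaged 524.5 ± 56.8 in CFU-E against 459.5 ± 37.2 CPM in PreCFU-E of Lepr-Cre mice, 519 ± 30.5 against 389 ± 22.3 CPM in KO/FL mice and 492 ± 7.98 against 354 ± 21.1 CPM in FL/FL mice. It rose in KO/FL mice (log2 fold change 0.41, SE 0.10, adjusted p = 0.00333) and in FL/FL mice (0.48, SE 0.10, adjusted p = 0.000671), and overlapped in Lepr-Cre mice (0.19, SE 0.10, adjusted p = 0.291). The highest PreCFU-E mean was that of Lepr-Cre mice.

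Itga5 averaged 87.8 ± 3.67 in CFU-E against 82.0 ± 0.614 CPM in PreCFU-E of Lepr-Cre mice, 121 ± 12.4 against 94.3 ± 12.4 CPM in KO/FL mice and 153 ± 8.71 against 118 ± 9.57 CPM in FL/FL mice. It rose in KO/FL mice (log2 fold change 0.37, SE 0.12, adjusted p = 0.0374) and FL/FL mice (0.37, SE 0.12, adjusted p = 0.0251), and in Lepr-Cre mice was 0.10 (SE 0.12, adjusted p = 0.730). The FL/FL call was lost without PreCFU-E B (0.126), PreCFU-E C (0.0941), CFU-E A (0.0953) or CFU-E B (0.0693), and without a filter on low counts (0.0579). The KO/FL call was lost without PreCFU-E B (0.186), PreCFU-E C (0.135), CFU-E A (0.0774) or CFU-E B (0.193), without a filter (0.0679), and in a fit of the 6 KO/FL libraries (0.0806). With male mice alone adjusted p was 0.228 in FL/FL and 0.48 in KO/FL mice. By limma adjusted p was 0.0523 to 0.0846 in FL/FL and 0.132 to 0.136 in KO/FL mice.

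Itga4 was at -0.19 (SE 0.11, adjusted p = 0.386) in Lepr-Cre, -0.28 (SE 0.11, adjusted p = 0.109) in KO/FL and -0.22 (SE 0.11, adjusted p = 0.188) in FL/FL mice, CFU-E over PreCFU-E. With the mouse as a replicate block it was called in KO/FL (adjusted p = 0.0101) and FL/FL mice (0.0379), and it was also called in KO/FL mice without CFU-E B (0.0414). Cd44 was at -0.04 (SE 0.09, adjusted p = 0.886), 0.11 (SE 0.09, adjusted p = 0.524) and 0.24 (SE 0.09, adjusted p = 0.0784) in the same order, and called in FL/FL mice with the block (0.0282). Cxcr4 was at 0.29 (SE 0.25, adjusted p = 0.574), 0.23 (SE 0.25, adjusted p = 0.622) and 0.29 (SE 0.25, adjusted p = 0.469), with overlap in all 3 genotypes.

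Amigo2 was at -1.70 (SE 0.58) in Lepr-Cre, -0.36 (SE 0.46) in KO/FL and 0.01 (SE 0.45) in FL/FL mice, CFU-E over PreCFU-E, and in Lepr-Cre mice -1.16 without CFU-E of Lepr-Cre B and -0.78 with males alone. Pcdh7 was at -1.72 (SE 0.40) in Lepr-Cre, -1.07 (SE 0.33) in KO/FL and -0.95 (SE 0.32) in FL/FL mice, and in Lepr-Cre mice -2.26 without that library, -2.33 with males alone and -1.01 by limma on log2(RPKM + 1). Within single mice, on log2(CPM + 0.5), Itgal, Itgb2 and Pcdh7 were lower in CFU-E than in PreCFU-E in 9 of 9 mice. The share of all genes with 1 direction in 9 of 9 mice was not counted, so no excess is read from such counts here or below. Pcdh7 differed by -2.13 to -0.73 in Lepr-Cre, -1.50 to -0.62 in KO/FL and -1.96 to -0.40 in FL/FL mice.

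Selplg was lower in CFU-E in 8 of 9 mice, with 0.02 in Lepr-Cre C, and Itgb1 and Itga5 were higher in 9 of 9. Itgb1 differed by 0.04 to 0.40 in Lepr-Cre, 0.29 to 0.56 in KO/FL and 0.40 to 0.53 in FL/FL mice.

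**Figure D4:**
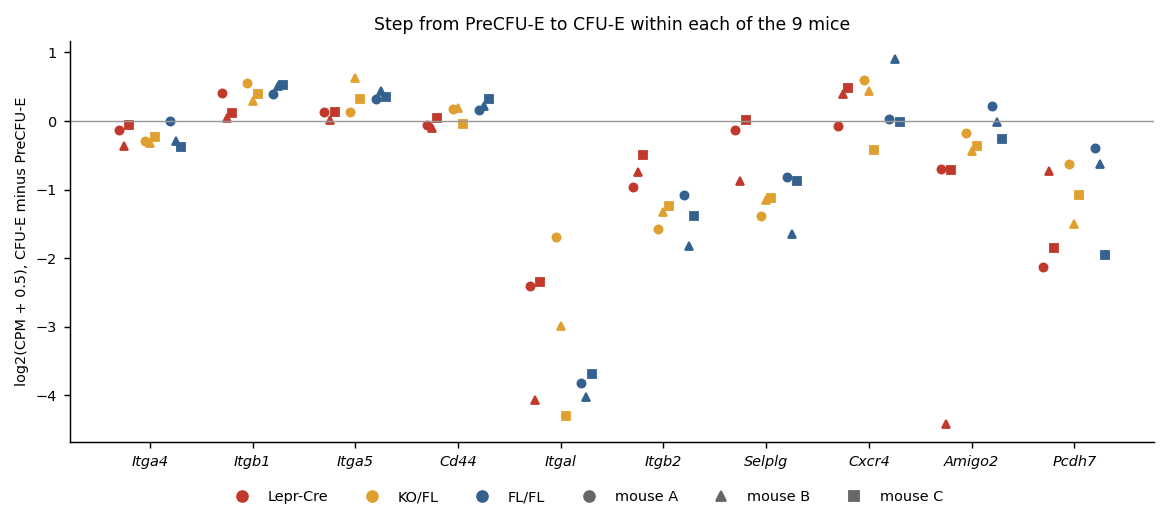
Difference between the CFU-E and the PreCFU-E library of the same mouse, on log2(CPM + 0.5) (y axis, CFU-E minus PreCFU-E), for each of the 10 genes in the 9 mice. Each point is 1 mouse, coloured by genotype. Itgal, Itgb2 and Pcdh7 lie below 0 in 9 of 9 mice and Itgb1 and Itga5 above 0 in 9 of 9. The share of all genes that do so was not counted. The low Amigo2 point of Lepr-Cre B (-4.42) comes from 0 counts in its CFU-E library.

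Whether the effect of genotype differs between the cell types was tested as an interaction, the Lepr-Cre effect in CFU-E minus that in PreCFU-E. By edgeR 0 of 8 genes were called against FL/FL mice, where 0.354% of all genes were, and 0 of 8 against KO/FL mice, where 0% were. DESeq2 called 0 of 8 in both, with 102 and 23 of all genes called. With the mouse as a replicate block 0 of 8 were called in both as well, with 198 and 61 of all genes called. At an unadjusted p under 0.05, where the share of all genes was not counted, there were 4 of the 8 against FL/FL (Itgb1, Cd44, Itgb2 and Selplg) and 2 against KO/FL mice (Itgb2 and Selplg). The largest of these was Selplg, at 0.82 (SE 0.36, adjusted p = 0.529) against FL/FL and 0.95 (SE 0.36, adjusted p = 0.713) against KO/FL mice. The calls of Selplg in PreCFU-E alone, and of Itgb1 in PreCFU-E alone, are therefore not shown to differ from CFU-E.

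Genes that work with these receptors were followed as lists, each read against the shares of all genes given above. Of 21 other integrin chains, 6 or 7 were tested. Itgb7, the beta7 chain that also pairs with alpha4, was the 1 called by genotype, lower in CFU-E of Lepr-Cre than of FL/FL mice (1.15 against 6.03 CPM, a log2 fold change of -2.34, SE 0.60, adjusted p = 0.0248). Against KO/FL mice 0 were called in either cell type. Between cell types 3, 2 and 3 of 6 were lower in CFU-E of Lepr-Cre, KO/FL and FL/FL mice and none higher, with Itga6, the alpha6 chain, at 32.2 against 67.8 CPM in Lepr-Cre mice (-1.07, SE 0.21, adjusted p = 0.00137) and 19.9 against 78.7 CPM in FL/FL mice (-1.98, SE 0.22, adjusted p = 8.24e-08). Itgav, the alphaV chain, fell in FL/FL mice (-2.19, SE 0.40, adjusted p = 0.000132).

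Of 33 genes for integrin activation and linkage to actin, 26 or 27 were tested. In PreCFU-E Ptk2b, a focal adhesion kinase relative, was the 1 lower gene in Lepr-Cre against FL/FL mice (78.0 against 114 CPM, -0.53, SE 0.14, adjusted p = 0.0200), and in CFU-E it was Vcl, vinculin (-0.43, SE 0.11, adjusted p = 0.0194). Against KO/FL mice 0 of this list were called in either cell type. Between cell types 1 rose and 3 fell in Lepr-Cre, 5 rose and 7 fell in KO/FL and 5 rose and 8 fell in FL/FL mice. Parvb, parvin beta, rose in FL/FL CFU-E (1.58, SE 0.17, adjusted p = 4.3e-08), while Zyx, zyxin (-2.28, SE 0.33, adjusted p = 4.49e-06), and Rassf5, a partner of RAP1 in LFA-1 activation (-1.86, SE 0.24, adjusted p = 7.96e-07), fell.

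Of 12 enzymes that build the sugars selectins bind, 2 were higher and 1 lower in PreCFU-E of Lepr-Cre than of FL/FL mice. St3gal6, a sialyltransferase, averaged 33.7 against 2.39 CPM (3.82, SE 0.60, adjusted p = 0.00253), and B4galt1, a galactosyltransferase, 109 against 68.4 CPM (0.68, SE 0.14, adjusted p = 0.00413). Both also rose against KO/FL mice (St3gal6 2.496, SE 0.56, adjusted p = 0.0403; B4galt1 0.62, SE 0.14, adjusted p = 0.0195). In CFU-E of Lepr-Cre mice B4galt1 rose against FL/FL mice (0.71, SE 0.14, adjusted p = 0.00352) and KO/FL mice (0.61, SE 0.14, adjusted p = 0.0268), and St3gal3, another sialyltransferase, fell against FL/FL mice (-0.75, SE 0.19, adjusted p = 0.0291). St3gal6 was itself higher in CFU-E than in PreCFU-E of FL/FL mice (52.1 against 2.39 CPM, 4.45, SE 0.50, adjusted p = 9.35e-06), where 5 of the 12 rose and 2 fell. The interaction for St3gal6 against FL/FL mice was called (-3.40, SE 0.64, adjusted p = 0.0268).

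Of 14 CD44 partners and hyaluronan genes, 9 were tested. In PreCFU-E of Lepr-Cre against FL/FL mice Hmmr, a hyaluronan-binding protein of the mitotic spindle, was higher (0.51, SE 0.11, adjusted p = 0.00601), and Srgn, the proteoglycan serglycin, was lower (94.2 against 141 CPM, -0.58, SE 0.14, adjusted p = 0.0106). Srgn was also lower against KO/FL mice (-0.62, SE 0.14, adjusted p = 0.0135), where Hmmr was not called. In FL/FL mice Msn, moesin, which links CD44 to actin, was lower in CFU-E (257 against 468.5 CPM, -0.86, SE 0.12, adjusted p = 1.8e-06), and its relative Ezr, ezrin, was higher (0.37, SE 0.10, adjusted p = 0.0119).

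Of 36 chemokine receptor and CXCR4 signalling genes, 34 were in the table and 19 to 22 were tested. Cxcr4 itself was not called, and 13 of 22 were lower in CFU-E than in PreCFU-E of FL/FL mice and 0 were higher, with a median log2 fold change of -0.77 against 0.01 over all genes. In KO/FL mice 8 fell and in Lepr-Cre mice 4 fell, with medians of -0.57 and -0.48. Dock2, a RAC activator needed for lymphocyte migration, averaged 44.8 against 144 CPM in Lepr-Cre, 29.6 against 213 CPM in KO/FL and 25.98 against 246 CPM in FL/FL mice, CFU-E against PreCFU-E. Its partner Elmo1 fell in FL/FL mice as well (-3.18, SE 0.30, adjusted p = 2.82e-09), as did the exchange factor Vav1 (-1.53, SE 0.14, adjusted p = 2.82e-09) and the kinase Pak1 (-1.92, SE 0.32, adjusted p = 4.38e-05).

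By genotype, 1 of 21 chemokine genes was higher and 3 were lower in PreCFU-E of Lepr-Cre than of FL/FL mice. Gnaq, the G alpha q subunit, fell there (15.6 against 68.6 CPM, -2.14, SE 0.19, adjusted p = 1.92e-07) and in CFU-E (9.54 against 62.1 CPM, -2.66, SE 0.42, adjusted p = 0.00609), and against KO/FL mice in both (PreCFU-E -2.03, SE 0.19, adjusted p = 8.76e-07; CFU-E -2.15, SE 0.42, adjusted p = 0.0439). Dock2 fell in PreCFU-E of Lepr-Cre mice against FL/FL (-0.77, SE 0.12, adjusted p = 0.00019) and KO/FL mice (-0.57, SE 0.12, adjusted p = 0.00925), and its interaction against FL/FL mice was called (1.58, SE 0.28, adjusted p = 0.00948). Vav1 fell in PreCFU-E against FL/FL mice (-0.49, SE 0.11, adjusted p = 0.0103) and was not called against KO/FL mice.

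Of 33 other adhesion receptors, 14 or 15 were tested, and Cd24a, a small sugar-bearing surface protein of erythroid cells, was the 1 called between genotypes. It rose in Lepr-Cre against FL/FL mice in PreCFU-E (878 against 370.4 CPM, 1.25, SE 0.11, adjusted p = 2.04e-07) and CFU-E (1311 against 854 CPM, 0.63, SE 0.11, adjusted p = 0.00195). Against KO/FL mice Cd24a was called higher in PreCFU-E and was not called in CFU-E. Of 25 cadherin family genes, 6 to 8 were tested, and Ctnna1, alpha catenin, was lower in PreCFU-E of Lepr-Cre than of FL/FL mice (-0.44, SE 0.10, adjusted p = 0.0115). Against KO/FL mice 0 of that family were called in either cell type. Of 10 niche ligands listed, among them Kitl, which binds KIT and none of these receptors, Icam2 alone was abundant enough to test. Icam2 was lower in CFU-E than in PreCFU-E of all 3 genotypes (-1.80 in Lepr-Cre, -1.60 in KO/FL and -2.35 in FL/FL mice).

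To show which genes vary most like each receptor, log2(CPM + 0.5) was correlated over the 18 libraries with 8846 genes of at least 5 CPM. These are descriptions, since the libraries share mice, groups and sequencing depth. Amigo2 was most like Gnaq (Pearson r = 0.96), Spred2 (0.94) and Cep97 (0.92), and Pcdh7 like Unc13d (0.93), Shank3 (0.92) and Mn1 (0.91). Itga4 was most like Rnf125 (0.91) and Nadk2 (0.91), and Itga5 like Hjurp (0.91), Wdr7 (0.90) and Agap1 (0.89). Itgb1 was most like Ssx2ip (0.95), Ammecr1 (0.93) and Dck (0.93).

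The leukocyte receptors had other neighbours. Itgb2 was most like Fli1 (r = 0.97), Dock2 (0.96) and Man2a2 (0.95), Itgal like Arf3 (0.96), Vwa5a (0.95) and Sept9 (0.94), and Selplg like G6pc3 (0.93), Arpc2 (0.91) and Aqp9 (0.91). Cxcr4 had weaker neighbours, Clk3 (0.82), Ndufb4 (0.79) and RP23-461O23.5 (0.76), and so had Cd44, with Slc35a3 (0.79), Capn5 (0.78) and Ipo9 (0.77). Among the 10 genes themselves the highest values joined Itgal with Itgb2 (0.86), Amigo2 with Pcdh7 (0.82), Itgb2 with Selplg (0.82) and Itga4 with Pcdh7 (0.82), and the lowest was between Itgb1 and Selplg (-0.86).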

How the data were processed

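Libraries were prepared from RNA of sorted cells with a stranded total RNA kit, per the labels' protocols. The submitters' processing notes name STAR 2.5.2b, HTSeq and mm10; strand setting and annotation are not stated there. Deposited counts are whole numbers per gene symbol, with no scaling by the authors. RPKM deposited by the authors are these counts over library total and 1 length per gene, and that length was within 5% of the GENCODE M21 gene span or exon length for 726 of 9980 genes (7.27%), so RPKM were used only within a gene and CPM per kb used the GENCODE M21 exon union (GRCm38). With an added offset, limma on RPKM still depends on that length.

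Genotypes were compared on the 9 libraries of a cell type, and cell types and interactions on all 18, with edgeR 4.0.16 in R 4.3.3 (TMM, filterByExpr with minimum count 10 and minimum total 15, robust quasi-likelihood, two-sided, Benjamini-Hochberg over all tested genes, threshold 0.05, no block). The scripts were tested on simulated data. SE was taken as |log2 fold change| over the root of F. The CPM divide counts by library total times TMM factor. Precision is set by the depth of 3541066 to 9389122 counts and 3 mice per group. Floors of 3 counts cover counting error only.

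The genes and lists were chosen with earlier results of these data known. All 10 genes are named in each comparison. Of each other list up to 4 called genes with the smallest p and a mean of at least 5 CPM could be named, and likeness names the 3 genes with the highest Pearson correlation, of which 1 is not reported here.

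Between replicates, chi-square over its degrees of freedom was 7.75 to 18.9, so none was a repeat. Each mouse gave both cell types, which pairs them by design (correlation of deviations 0.111 to 0.197). Letters paired the genotypes by correlation (all 3 over 0.1, from 0.107 to 0.189), except CFU-E of Lepr-Cre against FL/FL mice (0.0877 to 0.127). Alternatives were DESeq2 1.42.0 as size factors and as a test, no filter, a mean of at least 5 CPM, limma 3.58.1 on log2(RPKM + 1) and log2(RPKM + 0.1), the replicate block, other library sets, each library left out and, chosen after seeing the data, male mice alone.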

Additional observations from a re-analysis of the deposited data

How the results depend on the processing

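No called value changed direction under the alternatives that were run. The counts of the 8 function-listed genes called depended on the setting. On either RPKM scale limma called 0 in PreCFU-E of Lepr-Cre against FL/FL mice (4 by edgeR), 0 against KO/FL mice (1 by edgeR) and 1 in CFU-E against FL/FL mice (2 by edgeR). With male mice alone these 3 counts were 0, 0 and 1, and 3 instead of 5 genes were called between cell types in FL/FL and 0 instead of 2 in Lepr-Cre mice, with 2 mice per group. Of all genes in those 3 comparisons, limma called 263 to 267 of 10309, 59 to 64 of 10309 and 184 to 194 of 10192. Males alone gave 193 of 10422, 34 of 10422 and 122 of 10265. In PreCFU-E against KO/FL mice, 2 were called without a filter, 0 in the fit of all 18 libraries and 3 with the replicate block. These settings called 394 of 15454, 188 of 10732 and 840 of 10309 genes in all. In CFU-E against KO/FL mice, where edgeR called 0, DESeq2, no filter, the replicate block and the fit of all 18 libraries each called 1, Itga5. In that order they called 229 of 9793, 244 of 15661, 280 of 10192 and 131 of 10732 genes in all. The 6 libraries of Lepr-Cre mice alone gave 1 instead of 2 between cell types. Leaving out each library in turn gave 0 to 3 genes in PreCFU-E of Lepr-Cre against FL/FL and 0 to 1 against KO/FL mice, and 1 to 2 in CFU-E against FL/FL and 0 against KO/FL mice. Between cell types it gave 4 to 5 genes in FL/FL and KO/FL and 1 to 2 in Lepr-Cre mice. The cause of these changes was not tested. Leaving out a library changes both the number of libraries and the mice present, and these cannot be told apart here. The replicate block changed no call but those given above, and KO/FL against FL/FL mice and both interactions stayed at 0 throughout. On log2(RPKM + 1) the log2 fold change in CFU-E of Lepr-Cre mice was -3.11 against FL/FL and -2.43 against KO/FL mice for Amigo2, and -2.15 and -1.68 for Pcdh7, all nearer 0 than by edgeR.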

Other observations

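Itga9, the alpha9 integrin chain that pairs with beta1, was read at 2.75 to 6.78 CPM (here scaled by library total alone) in 16 libraries, from 12 to 56 counts. In the other 2 libraries it was far higher, at 855 in PreCFU-E of KO/FL C (5589 counts) and 822 in CFU-E of FL/FL B (7073 counts), which are 207 and 199 times the median of the 18 libraries. The other library of each of these mice was in the low range, with 35 counts in CFU-E of KO/FL C and 26 in PreCFU-E of FL/FL B. Among genes with at least 1000 counts and 20 times their 18-library median in a library, a rule set after Itga9 was seen, there were 2 genes in all, and the other was Podxl, podocalyxin, at 290.5 to 411 CPM in 5 of the 6 Lepr-Cre libraries. The mean of Itga9 in those groups is set by a single library, and no comparison was drawn from it.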
